A study of Homo sapiens with 8 samples.

Results

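GPRIN2, SCARA5, BCAS1, SALL2, RIMBP3, SLC33A2, C3orf18, LIAT1 and NNMT are 9 of the 19056 genes with a matched probe, and they were brought together because each was about 10-fold lower or more at the highest dose of EEDS or of helveticoside. EEDS is the ethanol extract of Descurainia sophia seeds, and helveticoside is a cardiac glycoside that the study isolated from it. The choice used the size of the fall, and the genes were grouped as sharing no pathway, so their different roles are not a result. In all, 106 genes were at least 10-fold lower at either top dose and 46 at both, including these 9. Because these signals chose the genes, the values below are a description and no test result is given for them.

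The 9 genes have different roles. GPRIN2 is a partner of G proteins named for the induction of neurite outgrowth, SCARA5 is a scavenger receptor of the cell surface that takes up ferritin, and SLC33A2 is a membrane transporter of the same family as the acetyl-CoA transporter SLC33A1. SALL2 is a zinc finger transcription factor, NNMT moves a methyl group from S-adenosylmethionine to nicotinamide, and LIAT1 binds the arginyltransferase ATE1. BCAS1 was named for its amplification in breast carcinoma and is known from myelin-forming cells, RIMBP3 is known from developing sperm, and the function of C3orf18 is not established. Cardiac glycosides inhibit the sodium pump.

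Expression was measured in A549, an established line from a human lung carcinoma, on 8 one-colour Agilent arrays in 2 series of 4. The EEDS series had a vehicle control and cells exposed to 1.25, 5 or 20 µg/mL, and the helveticoside series had its own vehicle control and cells exposed to 3.75, 15 or 60 nM. Each array held RNA pooled from triplicate cultures and each condition had 1 array, so there was no replicate error for any value. The labels give 48 h with the agent in the text of a viability assay, while the study's methods state a shorter exposure for the array cells.

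Each gene is given by the log2 of its quantile-normalized signal and by the log2 ratio to the vehicle array of its own series, on which -1 is 2-fold lower. The error beside a ratio is the one the scanner software assigned to both signals, and it covers the array alone. A treated signal that the software did not call well above background gives only a bound, written "at most". For such a bound the treated side was set to the dimmest signal called well above background on that array, or to the measured signal where this was brighter. The arrays had a median scanned signal of 182 to 278 over a local background of 27 to 34 and no saturated spot. In the EEDS series 63.3% to 64.9% of probes were well above background and the dimmest such signal was 4.55 to 4.81 (log2), against 54.5% to 59.5% and 5.22 to 5.96 in the helveticoside series. The 8 markers of A549 and epithelial cells that were looked up, keratins and aldo-keto reductases among them, were well above background on all 8 arrays. Of 8 markers of other cell types, CD3E, PECAM1, VWF and ALB were well above background on 0 arrays, while PTPRC and COL1A1 were on all 8. Between the 2 vehicle arrays, which held no agent, the log2 difference of 12389 genes had an SD of 0.50, and 5.3% of these genes differed by 2-fold or more.

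Promoter windows from RefSeq (GRCh38.p14, 250 bases before the start site and 50 after it) matched 5 of the 9 genes, GPRIN2, SALL2, RIMBP3, C3orf18 and LIAT1. The reference held no window for SCARA5, BCAS1, SLC33A2 and NNMT, so nothing is read from which genes have one. The windows of GPRIN2, C3orf18 and LIAT1 are shown. GPRIN2 was the lowest of the 9 at the lowest dose of EEDS. C3orf18 and LIAT1 had the most similar ratios of any pair over the arrays where both were measured, which left out the top doses. The window of GPRIN2 is chr10:46557547-46557846 on the minus strand, at the outermost of 4 listed start sites. That of C3orf18 is chr3:50567698-50567997 on the minus strand, at its 1 listed start site. This site lies inside the gene (chr3:50558025-50574700), away from its annotated 5′ end. That of LIAT1 is chr17:410075-410374 on the plus strand. The windows run 5′ to 3′, and capitals mark matches to the GC box GGGCGG, the CCAAT box or the repeat GCATGCGC on either strand.
GPRIN2: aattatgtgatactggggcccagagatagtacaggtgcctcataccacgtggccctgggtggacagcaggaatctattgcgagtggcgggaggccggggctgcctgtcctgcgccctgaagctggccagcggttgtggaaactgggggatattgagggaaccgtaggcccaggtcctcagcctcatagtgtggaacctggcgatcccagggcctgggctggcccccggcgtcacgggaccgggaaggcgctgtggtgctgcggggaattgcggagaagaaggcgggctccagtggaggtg
C3orf18: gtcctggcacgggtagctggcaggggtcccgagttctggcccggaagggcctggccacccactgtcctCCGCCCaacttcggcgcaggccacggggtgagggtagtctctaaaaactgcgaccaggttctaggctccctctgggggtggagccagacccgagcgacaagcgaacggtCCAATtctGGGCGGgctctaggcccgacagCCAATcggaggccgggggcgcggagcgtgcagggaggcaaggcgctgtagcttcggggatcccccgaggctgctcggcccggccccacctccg
LIAT1: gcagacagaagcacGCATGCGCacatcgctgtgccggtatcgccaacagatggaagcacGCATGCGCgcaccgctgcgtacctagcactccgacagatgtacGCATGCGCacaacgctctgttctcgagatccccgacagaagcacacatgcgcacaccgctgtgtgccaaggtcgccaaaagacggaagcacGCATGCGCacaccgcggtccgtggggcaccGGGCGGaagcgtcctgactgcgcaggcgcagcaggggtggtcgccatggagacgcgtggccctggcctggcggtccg
The window of C3orf18 held 2 GC boxes and 2 CCAAT boxes, and that of LIAT1 held 1 GC box and 4 copies of GCATGCGC. None of the letters searched was found in the window of GPRIN2, nor in those of SALL2 and RIMBP3. Among 35116 promoter windows of the same length, 45.0% held GGGCGG, 34.6% held CCAAT and 3.1% held GCATGCGC, a repeat that was searched after it was seen in the LIAT1 sequence. The TATA box (TATAAA) was held by 11.5% of all windows and the AP-1 motif (TGANTCA) by 7.7%. The cAMP response element (TGACGTCA) was held by 1.8%, and the EGR motif (GCGNGGGCG), whose letters overlap the GC box, by 9.4%. The GC content of the 5 windows ran from 46.0% in SALL2 through 57.0% in RIMBP3, 64.0% in GPRIN2 and 65.7% in LIAT1 to 69.7% in C3orf18, against a median of 58.7% over all windows. The ratio of observed to expected CpG was 1.08 in LIAT1 and 0.16 to 0.69 in the other 4, against a median of 0.58. These matches are a description of letters and were not tied to the signals.

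At the top doses the signals of the 9 genes were a small share of the vehicle level. The median log2 ratio of the 9 was -4.40 at 20 µg/mL EEDS and -4.44 at 60 nM helveticoside, while the median of all genes was -0.01 and 0.03. All 9 were at least 10-fold lower at each top dose (5 of 9 at 60 nM with the signal as scanned), where 0.61% of 14106 genes in the EEDS series and 0.502% of 13147 genes in the helveticoside series were, and nothing is read from these counts or from the 4.59% and 3.26% of genes that were at least 4-fold lower, because the top doses chose the genes. In pooled cultures fewer cells that express a gene and less RNA per cell cannot be told apart. The A549 and epithelial markers had medians of -0.88 and -0.82 at the top doses, with 3 of 8 at least 2-fold lower at each, where 16.9% and 14.2% of all genes were, and their part in the values of the 9 genes was not tested. Close to the 10-fold line, RHOV and RNF43 stood just inside it with a log2 ratio of -3.35 at 20 µg/mL EEDS, and MORC4 and SIDT1 just outside with -3.32. At 60 nM helveticoside, MORC4 (-3.37) and ANXA13 (-3.34) were just inside and CNPY2 (-3.30) and EPB41L4A (-3.26) just outside.

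**Figure D1:**
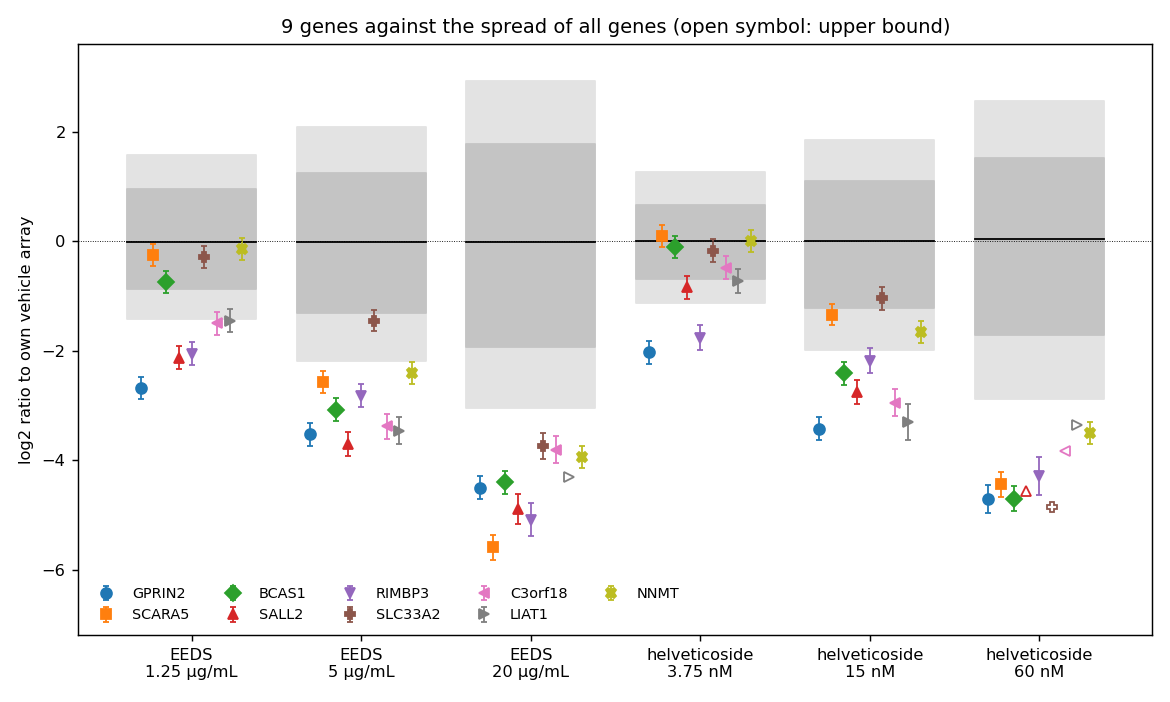
Log2 ratio of each of the 9 genes to its own vehicle array (vertical axis) at the 3 doses of EEDS and of helveticoside (horizontal axis); bars are scanner errors, open symbols are upper bounds, and the dark and light boxes span the central 90% and 98% of all genes with their median as a line. At both top doses every symbol lies below the light box, whereas at 3.75 nM helveticoside 7 of the 9 lie within it.

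The lower doses separated the 9. Their treated arrays were not used in the choice of genes, but their vehicle arrays were. At 5 µg/mL EEDS the median log2 ratio was -3.08 and the 9 ratios ran from -3.70 to -1.45, with 8 of 9 genes at least 4-fold lower against 1.45% of all genes and 4 of 9 at least 10-fold lower against 0.143%. With the signal as scanned and with normexp correction 0 of 9 were at least 10-fold lower at this dose. At 15 nM helveticoside the median was -2.41 and the range -3.43 to -1.04, with 6 of 9 genes at least 4-fold lower against 1.0% of all genes and 1 of 9, GPRIN2, at least 10-fold lower against 0.0763%. This count was 0 as scanned (-3.08 for GPRIN2), with normexp (-3.09), with 75th percentile scaling (-3.19), with normalization within each series (-3.30) and with the deposited values (-2.86), and 2 against the vehicle of the other series. In the authors' deposited values 2 of 9 were at least 4-fold lower at this dose. All 9 were at least 2-fold lower at both middle doses, where 9.08% and 7.96% of all genes were, but at 15 nM it was 8 of 9 as scanned, with normexp, with 75th percentile scaling and with the deposited values, under which SLC33A2 lay between -0.98 and -0.86. At 1.25 µg/mL EEDS 5 of 9 were at least 2-fold lower against 3.42% of all genes, and at 3.75 nM helveticoside 2 of 9 were against 1.7%, or 4 of 9 when the other series' vehicle array was used. At least 4-fold lower at these doses were 3 of 9 genes, GPRIN2, SALL2 and RIMBP3, against 0.164% with EEDS, and 1 of 9, GPRIN2, against 0.0715% with helveticoside, and with the signal as scanned the counts were 1 and 0. The lower doses share the vehicle array with the top dose of their series, so the ratios of a series are not independent of each other. The counts at the lower doses are therefore not free of the choice of genes. The step from the lowest to the middle dose uses neither the vehicle nor the top array. It is still part of the fall from vehicle to top that chose the genes, so its counts are not free of that choice. Over that step 7 of 9 genes were at least 2-fold lower in each series, where 3.47% of all genes were in the EEDS series and 5.24% in the helveticoside series, and the median step was -1.88 and -1.66 on the log2 scale. As scanned the median step with EEDS was -1.15.

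GPRIN2, SALL2, RIMBP3, C3orf18 and LIAT1 were the genes at least 2-fold lower at 1.25 µg/mL EEDS. Their log2 ratios there ran from -2.69 to -1.45, and those of SCARA5, BCAS1, SLC33A2 and NNMT from -0.75 to -0.15. In the helveticoside series, which shares no array with the EEDS series, the same 5 genes ran from -2.03 to -0.49 at 3.75 nM and the other 4 from -0.18 to 0.09. Nearest to each other across the groups were C3orf18 (-0.49) and SLC33A2 (-0.18), both smaller than the SD of 0.50 between the vehicle arrays. Of all genes, 10.11% were lower than C3orf18 and 28.71% lower than SLC33A2 at that dose. At the top doses the groups of 5 and 4 overlapped, with -5.09 to -3.81 and -5.59 to -3.74 in the EEDS series. The groups were set after the values were seen, and no test was made of them. Against the other series' vehicle array, BCAS1 (-1.18) and LIAT1 (-1.15) changed order at 1.25 µg/mL EEDS.

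**Figure D2:**
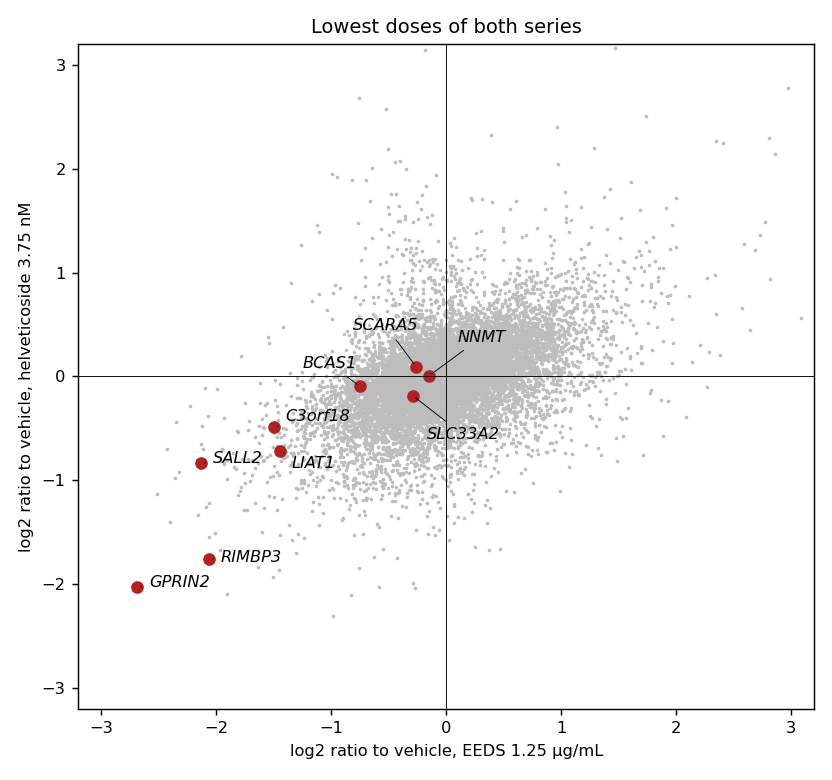
Log2 ratio to the vehicle array at the lowest dose of EEDS (horizontal axis) and of helveticoside (vertical axis) for 12413 genes (grey points; 2 lie beyond the axes), with the 9 genes in red. GPRIN2 and RIMBP3 lie at the lower left edge of the cloud, and SCARA5, SLC33A2 and NNMT lie inside it near 0 on both axes.

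GPRIN2 had the lowest ratio of the 9 at both lowest doses, although against the other series' vehicle RIMBP3 (-2.19) and GPRIN2 (-2.18) were level at 3.75 nM. Its log2 signal was 12.01 on the EEDS vehicle array and 9.32, 8.47 and 7.51 at 1.25, 5 and 20 µg/mL. On the helveticoside arrays the signal was 11.86 with vehicle and 9.83, 8.43 and 7.15 at 3.75, 15 and 60 nM. Every treated array was below its vehicle and each dose was below the one before it. The log2 ratios were -2.69 ± 0.20, -3.53 ± 0.21 and -4.50 ± 0.21 with EEDS and -2.03 ± 0.21, -3.43 ± 0.21 and -4.71 ± 0.25 with helveticoside. The lowest dose of EEDS thus held 59.8% of the log2 difference seen at the top dose, and that of helveticoside 43.1%. At the top doses the signal was 22.6-fold and 26.2-fold lower than the vehicle.

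SALL2, the transcription factor, had a similar early course with EEDS. Its log2 signal was 10.44 with vehicle and 8.30, 6.74 and 5.54 at the rising doses of EEDS. With helveticoside it was 10.17, 9.33 and 7.40, and the 60 nM array (5.59) was not well above background. The signal was thus lower at each dose than at the one before it in both series. The log2 ratios were -2.13 ± 0.21, -3.70 ± 0.22 and -4.89 ± 0.28 with EEDS, and -0.84 ± 0.21, -2.76 ± 0.22 and at most -4.57 with helveticoside. SALL2 was 29.7-fold lower at 20 µg/mL EEDS and at least 23.8-fold lower at 60 nM helveticoside.

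RIMBP3 had its smallest step from the lowest to the middle dose in both series. The log2 signal was 10.37, 8.31, 7.54 and 5.28 along the EEDS series from vehicle to 20 µg/mL. Along the helveticoside series it was 9.94, 8.18, 7.76 and 5.65. From the lowest to the middle dose the difference was -0.76 with EEDS and -0.42 with helveticoside, the smallest of the 9 genes in each series, while the steps on either side of it were -2.06 and -2.26 with EEDS and -1.76 and -2.11 with helveticoside. The ratios at the top doses were -5.09 ± 0.30 and -4.29 ± 0.35, which are 34.0-fold and 19.5-fold lower. RIMBP3 has the near-identical copies RIMBP3B and RIMBP3C, for which 0 probes were matched, so the reading of its 1 probe may include them.

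C3orf18 and LIAT1 had the smallest root mean square difference of any pair, 0.22 between their log2 ratios over the 4 arrays where both were measured. These arrays left out both top doses, while other pairs were compared over up to 6 arrays. At 20 µg/mL EEDS the pair parted, with C3orf18 at -3.81 and LIAT1 at most -4.31. The log2 signal of C3orf18 was 9.55, 8.05, 6.17 and 5.74 along the EEDS series and 9.31, 8.82 and 6.36 along the helveticoside series up to 15 nM. That of LIAT1 was 9.12, 7.67 and 5.66 up to 5 µg/mL EEDS and 8.82, 8.10 and 5.52 up to 15 nM helveticoside. At 15 nM helveticoside the signal of LIAT1 lay near the dimmest one called well above background on that array, 5.22. LIAT1 was not well above background at either top dose, and C3orf18 was not at 60 nM.

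The log2 ratios of C3orf18 were -1.5 ± 0.21, -3.38 ± 0.23 and -3.81 ± 0.25 with EEDS and -0.49 ± 0.21, -2.95 ± 0.25 and at most -3.83 with helveticoside. With EEDS, 88.7% of its log2 difference at the top dose was reached at 5 µg/mL. Those of LIAT1 were -1.45 ± 0.21, -3.46 ± 0.25 and at most -4.31 with EEDS and -0.72 ± 0.22, -3.30 ± 0.33 and at most -3.35 with helveticoside. C3orf18 was thus 14.1-fold and at least 14.3-fold lower at the top doses, and LIAT1 at least 19.8-fold and at least 10.2-fold lower. The bound of LIAT1 at 60 nM lay only 0.05 below its ratio at 15 nM, so a further difference could not be read from this array.

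SCARA5, the ferritin receptor, was close to its vehicle level at both lowest doses and had its largest step last. Its log2 signal was 11.77, 11.51, 9.19 and 6.18 along the EEDS series and 11.72, 11.81, 10.38 and 7.27 along the helveticoside series. The log2 ratio was -0.26 ± 0.20 at 1.25 µg/mL EEDS and 0.09 ± 0.20 at 3.75 nM helveticoside, smaller than the SD of 0.50 between the vehicle arrays. From the middle to the top dose the difference was -3.02 with EEDS and -3.11 with helveticoside. At 20 µg/mL EEDS, SCARA5 had the lowest ratio of the 9, -5.59 ± 0.23 or 48.2-fold lower, and at 60 nM helveticoside it was 21.7-fold lower (-4.44 ± 0.23).

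SLC33A2, the transporter, also had its largest step last, from smaller differences at the middle doses. The log2 signal was 10.31, 10.01, 8.86 and 6.57 along the EEDS series and 10.32, 10.14 and 9.28 up to 15 nM helveticoside, and at 60 nM it was not well above background. Its ratios at the middle doses, -1.45 ± 0.20 with EEDS and -1.04 ± 0.21 with helveticoside, were the nearest to 0 of the 9 genes. The last step was -2.29 with EEDS and at most -3.81 with helveticoside. At the top doses the ratio was -3.74 ± 0.23, or 13.4-fold lower, and at most -4.85, or at least 28.8-fold lower.

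BCAS1 was read by 2 probes. The brighter probe had a log2 signal of 11.29, 10.54, 8.21 and 6.88 along the EEDS series and 11.72, 11.62, 9.30 and 7.02 along the helveticoside series. The ratios were -0.75 ± 0.20, -3.08 ± 0.21 and -4.40 ± 0.21 with EEDS and -0.10 ± 0.20, -2.41 ± 0.21 and -4.70 ± 0.23 with helveticoside. BCAS1 was thus near its vehicle level at 3.75 nM, and the 2 steps after it were alike, -2.32 and -2.28. The second probe gave -0.34 and -2.74 at the lower doses of EEDS and -0.08 and -2.52 at those of helveticoside. At the top doses this probe was not well above background, with a ratio of at most -3.36 and at most -3.22, so both probes pointed the same way at every dose.

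NNMT, the nicotinamide methyltransferase, was still measured well above background at both top doses. Its log2 signal was 16.36, 16.21, 13.95 and 12.41 along the EEDS series and 16.18, 16.19, 14.52 and 12.67 along the helveticoside series. Both lowest doses were within 0.15 of the vehicle on the log2 scale. The ratios were -2.41 ± 0.20 and -3.94 ± 0.20 at 5 and 20 µg/mL EEDS and -1.66 ± 0.20 and -3.51 ± 0.20 at 15 and 60 nM helveticoside. At the top doses 6.49% and 8.79% of the vehicle signal were left, which is 15.4-fold and 11.4-fold lower.

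**Figure D3:**
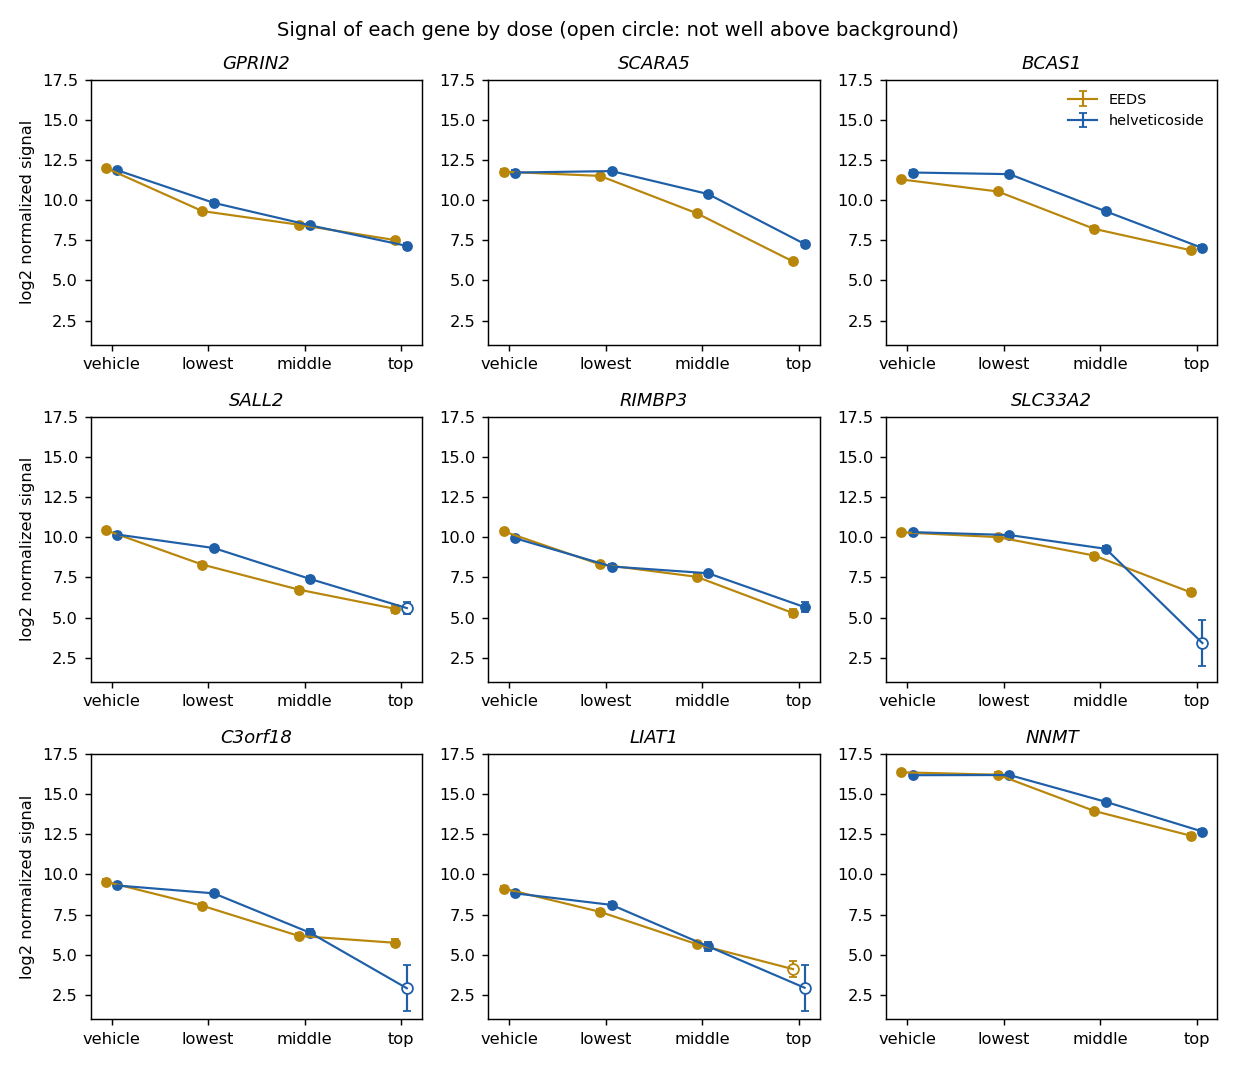
Log2 normalized signal (vertical axis) of each gene from vehicle to the top dose (horizontal axis) of EEDS (gold) and helveticoside (blue), 1 array per point; bars are scanner errors and open circles are signals not well above background. GPRIN2, SALL2 and RIMBP3 are already lower at the lowest dose in both series, whereas SCARA5, SLC33A2 and NNMT stay near the vehicle level there.

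The doses of the extract and of the glycoside are in different units, so the series were set side by side by dose step. In the fit a top signal not well above background was replaced by its bound, so the slopes of SALL2, SLC33A2, C3orf18 and LIAT1 with helveticoside and of LIAT1 with EEDS are bounds. Over the 9 genes, these included, the median slope was -1.49 log2 per step with EEDS and -1.48 with helveticoside, while the median of 14805 genes was 0.01 and -0.03 and the 5th percentile -0.63 and -0.57. The steepest slope without a bound was that of SCARA5 with EEDS, -1.91 ± 0.34 (SE from the limma fit with 4 residual degrees of freedom), and the shallowest that of NNMT with helveticoside, -1.22 ± 0.22. With 1 array per dose, this SE comes from the departure of the signals from a straight line on the dose step. It does not show how far a slope would vary between cultures, so it cannot tell whether slopes differ. For the 5 genes measured on every array, GPRIN2, SCARA5, BCAS1, RIMBP3 and NNMT, the difference of the slopes, EEDS minus helveticoside, ran from -0.43 ± 0.48 in SCARA5 to 0.12 ± 0.25 in GPRIN2, and among them it was larger than its error in RIMBP3 (-0.27 ± 0.24) alone. The vehicle arrays themselves differed by -0.43 in RIMBP3 and by 0.43 in BCAS1 on the log2 scale, the extremes of the 9 genes.

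The genes most like each member were sought among 11489 genes well above background on every array, by the root mean square difference of their log2 ratios over the arrays where the member was measured. HSPA8, a constitutive chaperone, was the nearest to GPRIN2 (0.46 over 6 arrays), and its ratios ran to -4.32 and -4.16 at the top doses. For SALL2, B4GALNT1, a ganglioside synthase, and HSPA8 were equally near (0.39 over 5 arrays). HOXB13, a homeobox factor, was nearest to SCARA5 (0.31 over 6 arrays), with ratios of -5.00 and -4.67 at the top doses. ACOX2, a peroxisomal oxidase, was nearest to BCAS1 (0.37) and EEF2K, a kinase of elongation factor 2, to RIMBP3 (0.54), each over 6 arrays. The smallest differences were over few arrays, VASH1 with LIAT1 (0.14 over 4 arrays) and DPYSL5 with C3orf18 (0.18 over 5 arrays). At the top doses, left out for LIAT1, VASH1 was at -4.1 and -2.98 where LIAT1 was at most -4.31 and at most -3.35. LINC00173 was nearest to SLC33A2 (0.20 over 5 arrays), but at 60 nM helveticoside, which this measure left out, it was at -1.97 where SLC33A2 was at most -4.85. C14orf93 was nearest to NNMT (0.31 over 6 arrays), followed for NNMT by the glutathione peroxidase GPX2 (0.32).

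The relatives of the 9 genes by sequence differed among themselves. Of 16 relatives listed, 14 were on the array and 7 could be given a ratio at both top doses, with 3 at least 2-fold lower at 20 µg/mL EEDS and 2 at 60 nM helveticoside, against 16.9% and 14.2% of all genes. With 75th percentile scaling the second count was 1. The medians of the 7 were -0.52 and -0.22. For RIMBP2 they use bounds, at most -0.1 with EEDS and, its vehicle signal being dim, at least 0.35 with helveticoside. Whether RIMBP2 was 2-fold lower with EEDS could not be read. GPRIN1 had the lowest ratios, -1.97, -2.54 and -2.63 at the rising doses of EEDS and -0.82, -2.49 and -2.86 at those of helveticoside, so like GPRIN2 it was already lower at the lowest dose of EEDS. GPRIN3 was at -1.28 and -0.45 at the top doses. SCARA3 was at -1.36 and -1.15, SALL3 at 0.19 and 0.22, and SLC33A1 at -0.52 and -0.22.

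NNMT uses S-adenosylmethionine and the vitamin form nicotinamide, so 24 genes of NAD and methyl donor metabolism were looked up. At 20 µg/mL EEDS 5 of the 19 with a ratio were at least 2-fold lower and 1 was at least 2-fold higher, with a median of -0.43, where 16.9% of all genes were lower and 15.5% higher, and the first count was 8 when arrays were scaled to their 75th percentile. At 60 nM helveticoside 5 of 17 were lower and 0 higher, with a median of -0.37, where 14.2% of all genes were lower and 11.5% higher. With the deposited values 3 of 17 were lower, with a median of -0.21. NAMPT, the main enzyme that recycles nicotinamide to NAD, had the lowest ratios, -2.48 and -3.00. MTR, the methionine synthase, was at -2.16 and -1.85, and MAT2A, which makes S-adenosylmethionine, at -1.61 and -1.61. AHCY, which clears S-adenosylhomocysteine, was at -0.29 and -0.37. SIRT1, an NAD-dependent deacetylase, was the gene at least 2-fold higher with EEDS (1.34), and with helveticoside it was at 0.93.

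Of 16 genes of iron and ferritin handling, looked up for SCARA5, 15 had a ratio and 2 were at least 2-fold lower at each top dose, where 16.9% and 14.2% of all genes were, with medians of -0.09 and 0.06. These were the iron exporter SLC40A1 (-2.64 and -2.50) and the ferrireductase STEAP3 (-1.94 and -1.53). The transferrin receptor TFRC was at 0.40 and 0.32, and the ferritin chains FTH1 and FTL lay between -0.30 and 0.17.

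Among 7 genes looked up for LIAT1, mostly of arginylation and the N-end rule, the median was 0.79 at 20 µg/mL EEDS and 0.50 at 60 nM helveticoside. ATE1, the arginyltransferase that LIAT1 binds, was at 1.14 and 0.62, and JMJD6, a hydroxylase, at 1.12 and 0.75. NTAN1, an amidase of N-terminal asparagine, was the gene at least 2-fold lower, at -1.30 and -1.12. With EEDS, 2 of the 7 were at least 2-fold higher, 1 of them in the authors' deposited values, where 15.5% of all genes were. With helveticoside 0 of 7 were, where 11.5% of all genes were, and with 75th percentile scaling 1 of 7 was and 0 were at least 2-fold lower.

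The 5 reported target genes of SALL2 were listed without regard to the direction in which it acts on them. Their link to the SALL2 signal was not tested. At each top dose 3 of the 5 were at least 2-fold higher, where 15.5% and 11.5% of all genes were. At least 2-fold lower was 1 of 5, against 16.9% and 14.2% of all genes, and the medians were 1.07 and 1.10. The cell cycle inhibitor CDKN1A was at 3.23 and 2.52, the apoptosis gene PMAIP1 at 2.0 and 1.74, and the cyclin CCND1 at 1.07 and 1.10. CCNE1 was at 0.26 and -0.17. CDKN2A was at -2.16 and -2.25, but A549 is known to lack this locus, so what its probe read is uncertain.

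**Figure D4:**
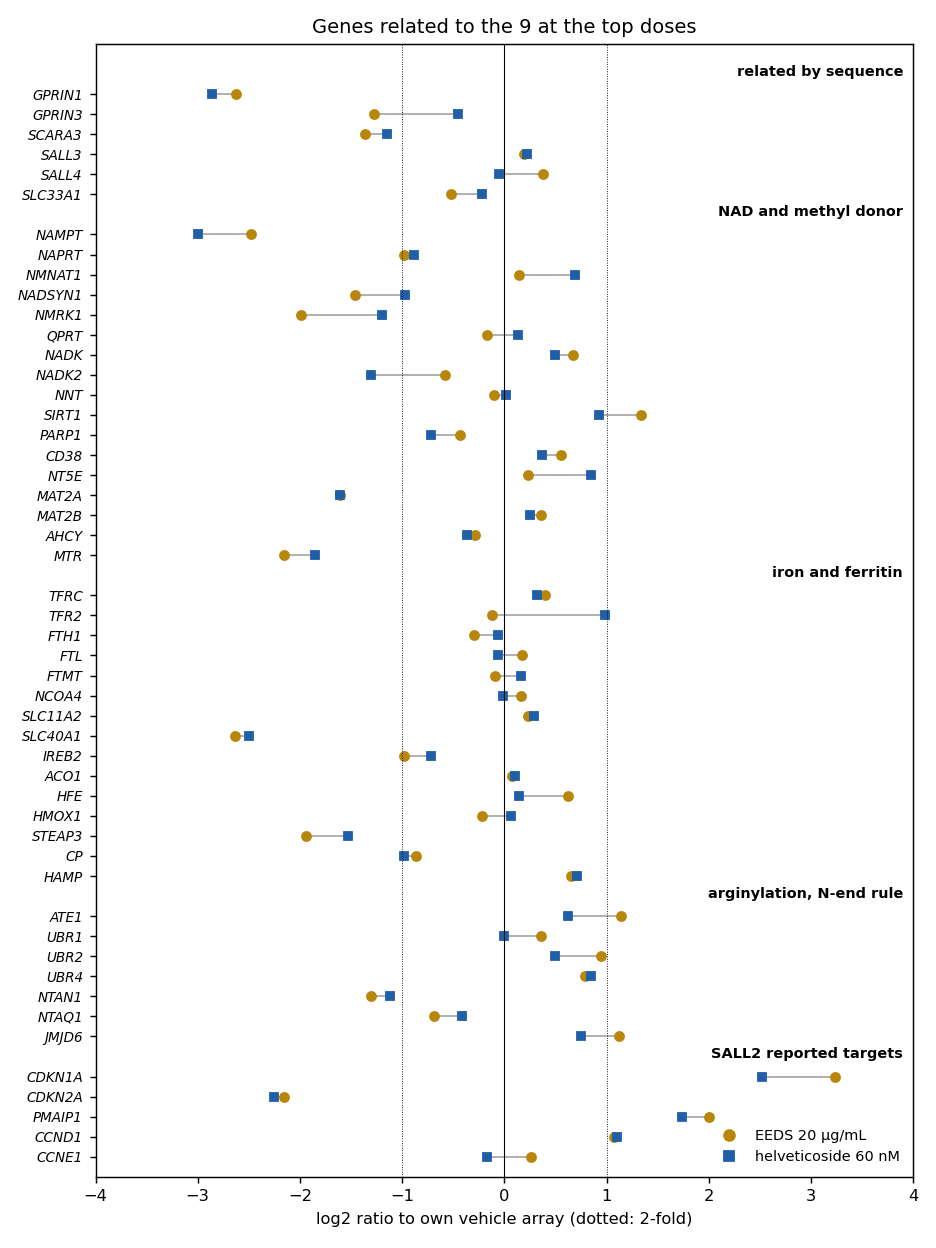
Log2 ratio to the vehicle array (horizontal axis) at the top dose of EEDS (gold circles) and of helveticoside (blue squares) for the 50 listed genes measured at both, grouped by list; dotted lines mark a 2-fold difference. Most genes lie within 2-fold of the vehicle, with GPRIN1, NAMPT and SLC40A1 far to the left and CDKN1A far to the right.

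The nearest protein-coding genes with a probe on either side of the 9 were also read. At 20 µg/mL EEDS 6 of 16 neighbours with a ratio were at least 2-fold lower, and at 60 nM helveticoside 3 of 15, against 16.9% and 14.2% of all genes, and 0 were at least 2-fold higher. C11orf71, next to NNMT, was at -2.23 and -2.58, RECQL4, a helicase next to SLC33A2, at -1.89 and -2.05, and USP18, next to RIMBP3, at -2.17 and -1.96. PRODH, on the other side of RIMBP3, was at -2.11 and -0.82. Near BCAS1, CYP24A1 was at -1.30 and -0.92 and ZNF217 at 0.77 and 0.62. Near LIAT1, RPH3AL was at -1.41 and -0.47 and RFLNB at 0.33 and 0.75. CACNA2D2, next to C3orf18, was at most -0.61 at 20 µg/mL EEDS, so whether it was 2-fold lower could not be read. The neighbours of GPRIN2, SCARA5 and SALL2 lay between -0.40 and 0.90.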

How the data were processed

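The 9 genes and the gene lists were chosen with earlier results of these data known. The authors deposited, for every spot, intensity values from the scanner software (Agilent Feature Extraction), namely the median signal, the local background and a background-subtracted processed signal, with its error and the calls of outlier spots and of spots well above background. The authors also deposited processed intensity values per probe on a linear scale, which track the median signal minus local background and are blank for 0 to 816 values per array. The labels name the dye Cy5, while the columns carry the prefix of the green channel. From the deposited intensity, control and outlier spots were left out (22 probes lost all spots), spots of a probe were averaged, and quantile normalization over the 8 arrays was followed by log2. Matches were found for 24812 of 34105 probes by RefSeq transcript to 19056 genes of GRCh38.p14, which was used for names, neighbours and promoter windows. The brightest probe stood for each of 4797 genes with several. Ratios needed a signal well above background on at least 1 of the arrays compared.

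Slopes on the dose step were fitted with limma 3.58.1 (R 4.3.3, statmod 1.5.0, trend and robust) on 14805 genes over 8 arrays. The script was checked on simulated data. Samples were grouped by the agent and dose in their labels. Other values used Python 3.11.15, numpy 2.4.6 and pandas 2.3.3, and figures matplotlib 3.10.9. The genes named are the 9, listed genes well above background, the neighbours with a probe, the 2 genes with the smallest root mean square difference from each and the 2 nearest to a 10-fold fall on either side; 1 listed gene is not reported here. Among 999 probes with several spots, the median SD between spots was 0.0687 to 0.0852 (log2), while the small number of arrays sets the precision. The alternatives are given in the closing section.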

Additional observations from a re-analysis of the deposited data

How the results depend on the processing

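The ratios of the 9 genes, their medians and their counts at each dose, and the step from the lowest to the middle dose, were recomputed with the signal as scanned, normexp correction (offset 50), 75th percentile scaling, quantile normalization within each series, the processed values the authors deposited, the mean of all probes, no bound, both arrays well above background, outlier spots kept and, except for the step, the other series' vehicle, and each slope without the lowest, middle or top dose. No value of a gene at least 2-fold lower changed sign, and the mean of all probes, no bound and keeping outlier spots moved none of the counts or medians beyond the yardstick, an SD of 0.50 between the vehicle arrays or a count within 1.5 times. With the signal as scanned the median log2 ratio at the middle and top doses of EEDS was -2.45 and -3.52 instead of -3.08 and -4.40, and at 60 nM helveticoside -3.47 instead of -4.44. With normexp these were -2.46, -3.58 and -3.49. The median step from the lowest to the middle dose of EEDS was -1.15 as scanned and -1.18 with normexp instead of -1.88. The scanned signal keeps its background and normexp adds the offset, so both raise dim signals by construction. The deposited values gave -1.84 at 15 nM, with 2 instead of 6 genes at least 4-fold lower, and -3.52 at 60 nM; the cause was not tested.

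At 60 nM, 5 instead of 9 genes were at least 10-fold lower as scanned, with normexp and with the deposited values, and where both arrays had to be well above background the 5 genes left were all at least 2-fold, 4-fold and 10-fold lower. At 1.25 µg/mL EEDS 1 instead of 3 genes was at least 4-fold lower as scanned, with normexp and against the other vehicle. At 3.75 nM 1 gene was, GPRIN2, and 0 were as scanned, with normexp, with 75th percentile scaling, within each series and with the deposited values, and 2 against the other vehicle, where 4 instead of 2 genes were at least 2-fold lower. At 5 µg/mL EEDS 0 instead of 4 genes were at least 10-fold lower as scanned and with normexp. At 15 nM helveticoside 0 instead of 1 gene was at least 10-fold lower as scanned, with normexp, with 75th percentile scaling, within each series and with the deposited values, and 2 were against the other vehicle. The median slope with EEDS was -1.16 as scanned and -1.67 with 75th percentile scaling, and with helveticoside -1.12 as scanned and -1.21 without the top dose, instead of -1.49 and -1.48. With 75th percentile scaling the median of all genes was -0.11 at 20 µg/mL EEDS and nearer to 0 at the other doses.

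No paired analysis was possible because each dose had 1 array and the labels carry no replicate numbers. Dim signals limited SLC33A2, C3orf18 and SALL2 at 60 nM helveticoside and LIAT1 at both top doses to bounds.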
